A study of Homo sapiens with 4 samples.

Results

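Of the 11370 regions of 53BP1 enrichment on chromosomes 1 to 22 of MCF10A cells, 2156 lay on RNA polymerase II phosphorylated at serine 5 (S5p) and met no region of the serine 2 form (S2p). These 2156 regions made up 19.0% of the 53BP1 list (exact 95% interval 18.2 to 19.7). A region was counted when it shared at least 1 bp with a row of the S5p list and no bp with any row of the S2p list. They are called S2p-free 53BP1 regions below, and were set beside the 8941 53BP1 regions (78.6%, 77.9 to 79.4) that met both forms. A further 238 regions met neither form and 35 met S2p alone. Chromosome X, left out by the rule, held 50 regions of the same kind.

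The data were ChIP-seq peak lists from MCF10A, an untransformed line of human breast epithelial cells, grown under normal conditions with no treatment, knockout or second condition. The series has 4 samples, and the 3 ChIPs used here (53BP1, S5p and S2p) had 1 library each; the input was not analysed here. With 1 library per ChIP, no replicate spread is known, and the values below are descriptions with no test. Intervals cover counting error only and take regions as independent.

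53BP1 is a chromatin reader of the DNA damage response that is recruited to modified nucleosomes near double-strand breaks, and it also binds p53. RNA polymerase II carries a long repeated tail on its largest subunit. Serine 5 of the repeat is phosphorylated as transcription starts, near promoters and also at many active enhancers, and serine 2 phosphorylation builds up as the polymerase elongates through the gene body. A site with S5p and no S2p is therefore one where the initiating form was detected and the elongating form was not.

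Members were chosen by the presence of an S5p region and the absence of an S2p region at the 53BP1 region, so the S5p and S2p values of the members partly follow from the choice. Their 53BP1 width may do so too, since a wider region has more bases that can meet S2p. "No S2p" means that no S2p region passed the threshold of the deposited list at that place. Some regions lay just inside or just outside the rule. The S2p-free region nearest to S2p, on chromosome 16 at 88851267 to 88851782 (hg19), ended 5 bp from an S2p region, and 3 lay within 10 bp of one. Just outside the rule, the smallest S2p overlap was 2 bp, at chromosome 12 from 104531403 to 104532351. At the other edge, the smallest S5p overlap of a member was 9 bp, at chromosome 15 from 85291547 to 85292184. Under 50% of the bases were on S5p in 48 of the 2156 members.

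S2p-free 53BP1 regions were weaker and narrower than those on both forms. Fold enrichment here is the authors' own ratio over background for each region, and it ranks regions within 1 list. The median 53BP1 fold was 5.04 in S2p-free regions (quartiles 4.15 and 6.30, range 2.43 to 25.7), against 6.42 in regions on both forms (4.81 and 8.82, range 2.43 to 115) and 6.04 in the whole 53BP1 list. Median width was 400.0 bp (quartiles 299 and 530.3) without S2p and 625 bp (437 and 864) with both forms, against 563 bp in the whole list. The distributions overlapped over most of their range.

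In the 53BP1 list as a whole, 72.1% of regions had a −log10 q-value of 5 or more. Among S2p-free regions 1222 of 2156 did (56.7%, interval 54.6 to 58.8), against 6907 of 8941 on both forms (77.3%, 76.4 to 78.1). The lower 50% of the list by fold, which holds 49.9% of all regions because of tied values, took in 1525 S2p-free regions (70.7%, 68.8 to 72.6), against 3917 on both forms (43.8%, 42.8 to 44.8). The upper 10% of the list held 40 S2p-free regions (1.86%, 1.33 to 2.52), against 1092 on both forms (12.2%, 11.5 to 12.9).

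The S5p regions beneath them were of moderate to high strength, but not the strongest. The 53BP1 region was paired with the S5p region it met, or with the one of larger fold when it met more than 1. The median S5p fold of these partners was 13.9 for S2p-free regions (quartiles 9.50 and 20.1), against 36.6 for regions on both forms (25.6 and 53.0) and 3.76 for all S5p regions. On the percentile scale of the S5p list the partners of S2p-free regions had a median of 85.3 (quartiles 81.5 and 88.4), against 94.4 (90.7 and 97.5). Thus 1723 of the 2156 (79.9%) sat on the upper 20% of the S5p list, against 98.4% of regions on both forms, but only 327 (15.2%) on its upper 10%, against 78.9%. The weaker 50% of the S5p list held the partners of 46 S2p-free regions (2.13%), against 24 on both forms (0.268%).

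Their S5p partners were also compact. The median S5p partner width was 1375.5 bp (quartiles 986.5 and 2123) without S2p, against 3959 bp (2150.0 and 11167) on both forms. Partners of 3000 bp or more underlay 306 S2p-free regions (14.2%), against 5367 (60.03%) on both forms, and partners of 10000 bp or more underlay 65 (3.01%), against 2463 (27.5%).

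**Figure D1:**
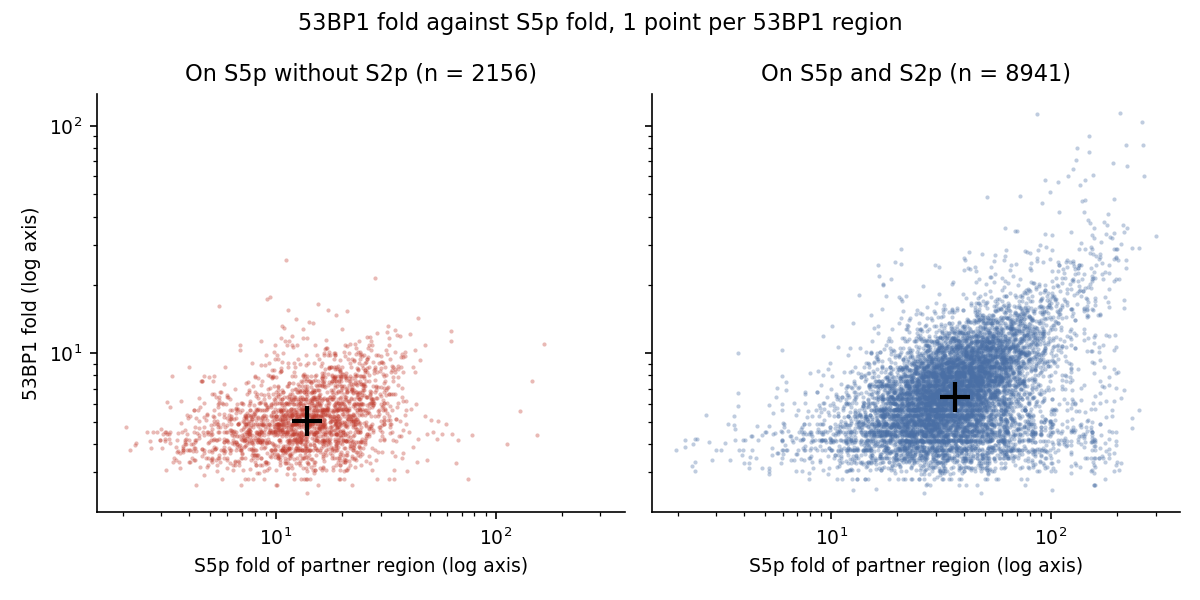
Each point is 1 53BP1 region, with the fold of its S5p partner on the x axis and its own 53BP1 fold on the y axis, both on log axes and both the authors' ratios. The left panel holds the 2156 regions without S2p and the right panel the 8941 on both forms; the cross marks the medians (13.9 and 5.04 on the left, 36.6 and 6.42 on the right). The bulk of the left cloud lies lower on both axes, with S5p quartiles of 9.50 and 20.1 on the left and 25.6 and 53.0 on the right, although single points on the left reach an S5p fold of 165.

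The lower 53BP1 fold of S2p-free regions moved with their weaker S5p. All 11097 regions on S5p, with or without S2p, were placed in 10 equal bins by the fold of the S5p partner, and the classes were compared within each bin. The bins are equal in number of regions. The weakest spanned S5p folds of 1.96 to 11.7 and the strongest 71.5 to 300, so S5p fold still varied within a bin. S2p-free regions made up 73.2% of the bin of weakest S5p (812 of 1110) and 52.3% of the next, and 0.631% of the bin of strongest S5p, which had 7. In the weakest bin the median 53BP1 fold was 4.56 without S2p and 4.32 with it. In the next bin it was 5.14 without and 4.91 with, and in bin 6 it was 6.62 in each class. In the bins of strongest S5p, with few S2p-free regions, the order was the other way. The medians were 6.16 without S2p and 6.93 with it in bin 7, 4.81 and 7.56 in bin 8, 4.41 and 8.14 in bin 9, and 4.36 and 9.64 in bin 10. Over the 10 bins, S2p-free regions were higher in 5 and lower in 5. Bins 3, 5 and 6 were near ties, with differences of -0.031, 0.016 and 0.005. Averaged over the bins with the S2p-free regions as weights, the difference in median fold was 0.12, against -1.38 before binning. Bins 1 to 7, which had at least 20 S2p-free regions each and 2130 together, gave a weighted difference of 0.16, with 5 bins higher and 2 lower in S2p-free regions.

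Width did not close the gap in the same way. At equal S5p fold S2p-free regions were narrower in all 10 bins, with medians of 347.5 against 360.5 bp in the weakest bin and 502 against 620.0 bp in bin 6. The weighted difference was -57.8 bp, against -225 bp before binning. S5p partners of S2p-free regions were narrower in 9 of 10 bins, with a weighted difference of -1192 bp, so S5p width moved with this result; with bins of S5p fold further divided by S5p width, an alternative added after the values were seen, the difference was -41.2 bp.

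**Figure D2:**
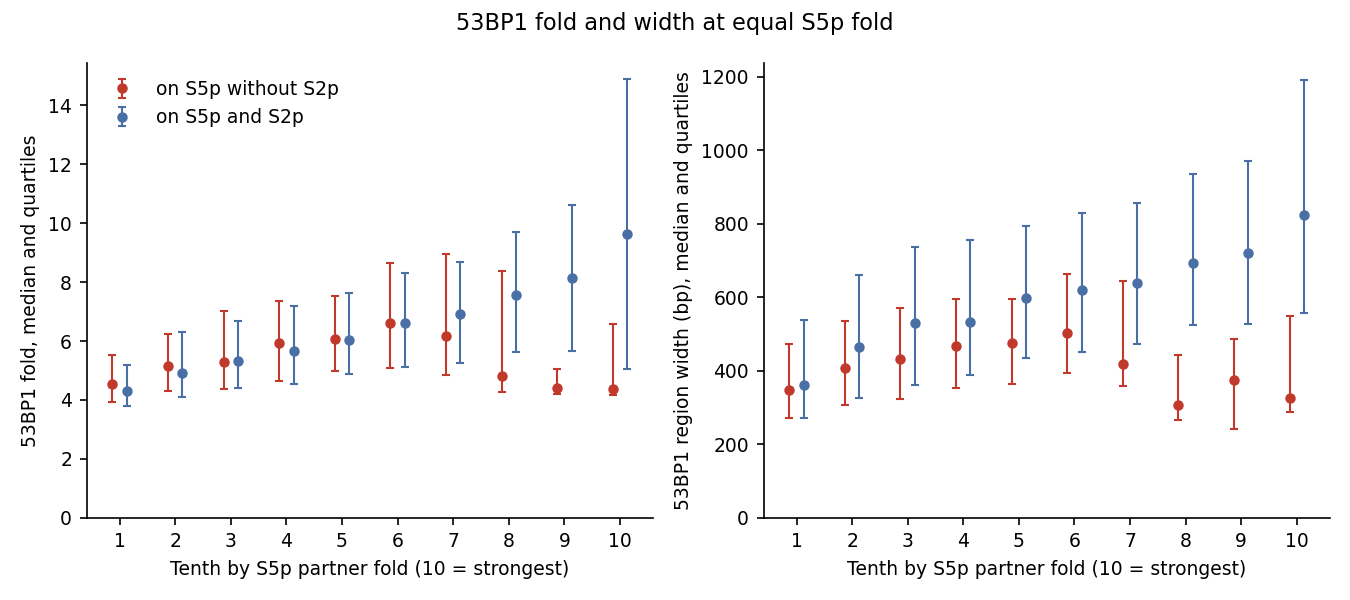
Median and quartiles of 53BP1 fold (left) and 53BP1 region width in bp (right) in 10 equal bins of S5p partner fold, for regions without S2p (red) and on both forms (blue). The fold medians lie close together in bins 1 to 6 (at 4.56 and 4.32 in bin 1), while the widths without S2p are lower in every bin; bins 8 to 10 hold only 10, 9 and 7 regions without S2p.

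The 3 bins of strongest S5p held a small set that was singled out after its values were seen. In them 26 S2p-free regions lay on S5p partners with a fold of 43.8 or more and a median partner width of 7624 bp. For 20 of these 26 the S5p partner met S2p at another point of its length. Their 53BP1 fold had a median of 4.47, against 8.15 for the 3303 regions on both forms in the same bins. Their 53BP1 summits lay a median of 971 bp from the S5p summit, against 66 bp on both forms. The 5 with the strongest S5p had S5p folds of 113 to 165, partners of 7171 to 38140 bp, summit distances of 826 to 10249 bp and S2p gaps of 53 to 1776 bp. The first of them, on chromosome 19 at 12912304 to 12912916, had a 53BP1 fold of 11.03 and lay 10249 bp from the summit of a 13612 bp S5p region with a fold of 165. The next, on chromosome 14 at 75743753 to 75743966, had a 53BP1 fold of 4.36 on an S5p region of fold 153. These 5 thus lay away from the summits of strong, wide S5p regions, whereas 7 of the 26 had their summit within 500 bp of the S5p summit. All 5 partners met S2p, and the rule keeps members off S2p. Their place on the partner and their small S2p gaps therefore partly follow from the choice.

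Seen from Pol II, S5p regions without S2p held 53BP1 in 1754 of 24286 cases (7.22%, interval 6.90 to 7.56), against 7553 of 36977 S5p regions with S2p (20.4%, 20.02 to 20.8). That order depended on S5p strength. The S5p list was divided into 20 bins by fold. In bin 15, at S5p folds of 5.29 to 6.33, 53BP1 was present in 5.79% of regions without S2p (4.62 to 7.15), against 1.74% with S2p (1.17 to 2.49). In bin 16 the shares were 11.8% without (10.3 to 13.6) and 4.84% with (3.82 to 6.04). In bin 17, at folds of 8.40 to 13.4, they were 30.9% without (28.6 to 33.2) and 22.5% with (20.3 to 24.7).

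Above that strength the order turned. In bin 18, at folds of 13.4 to 23.7, 53BP1 was present in 64.6% of S5p regions without S2p (61.5 to 67.6), against 68.9% with it (66.8 to 70.9). In bin 19 the shares were 79.8% without (74.4 to 84.6, 253 regions) and 93.6% with (92.7 to 94.5, 2811 regions). In bin 20 only 15 of 3063 S5p regions lacked S2p, and 13 of them held 53BP1. Width moved with these comparisons. In bin 16 the median width of S5p regions was 980.0 bp without S2p and 3725.5 bp with S2p, and in bin 19 the medians were 1280.0 and 2734 bp; its part in the turn was not tested. Among S5p regions without S2p, those with 53BP1 had a median S5p fold of 13.3 and width of 1224 bp, against 3.41 and 647 bp for those without 53BP1.

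**Figure D3:**
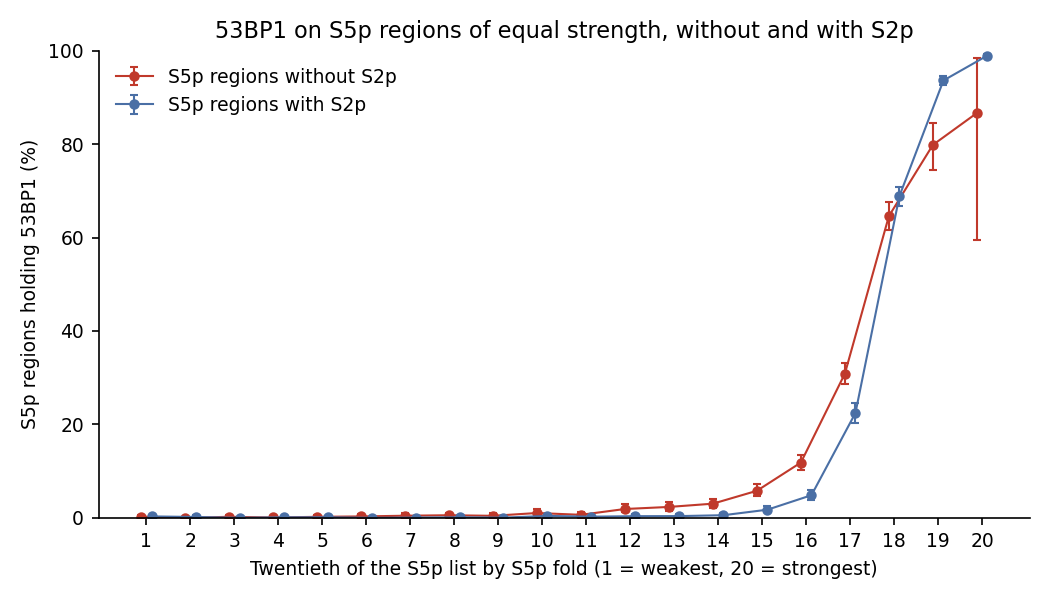
Share of S5p regions holding a 53BP1 region in 20 bins of the S5p list by S5p fold, for S5p regions without S2p (red) and with S2p (blue); bars are exact 95% binomial intervals. The red points are higher in bins 5 to 17 (30.9% against 22.5% in bin 17, with the weakest bins near 0%) and lower from bin 18 to bin 20, where only 15 regions remain without S2p.

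Within the S2p-free set, stronger 53BP1 went with stronger S5p and with closer summits. Ordered by 53BP1 fold in 5 equal bins, the median S5p fold of the partner was 11.4, 11.96, 13.6, 15.1 and 18.7 from the weakest bin to the strongest. The median distance between the 53BP1 and S5p summits over the same bins was 112.5, 104, 88, 70.0 and 59 bp, and the median 53BP1 width was 299.5, 315, 383, 456 and 567 bp. S5p width changed little, between 1312.5 and 1459 bp. As a description across regions, Spearman's rho between 53BP1 fold and S5p fold was 0.302 over the 2156 S2p-free regions, against 0.376 over the 8941 on both forms. Regions of 1 list share a library and a background estimate. The rho between 53BP1 fold and the gap to the nearest S2p region was -0.0543, and that between S5p fold and this gap was -0.202.

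The 53BP1 summit sat close to the S5p summit. The distance had a median of 84 bp (quartiles 28 and 210.0) in S2p-free regions, against 78 bp (22 and 385) on both forms; within bins of S5p fold the weighted difference in medians was -54.0 bp, where it was 6 bp before binning and 2.79 bp in bins of both S5p fold and S5p width. Of all 53BP1 regions on S5p, 54.9% had summits within 100 bp of each other and 79.4% within 500 bp. The shares within 100 bp were 53.8% without S2p (1161 regions, interval 51.7 to 56.0) and 55.2% on both forms (4935, 54.2 to 56.2). Within 500 bp they were 88.1% without S2p (1899 regions, 86.6 to 89.4) and 77.3% on both forms (6912, 76.4 to 78.2). S2p-free partners were narrower, and a narrow region bounds the distance. Wholly inside S5p lay 1962 S2p-free regions (91.0%, 89.7 to 92.2), against 8804 on both forms (98.5%, 98.2 to 98.7) and 97% of all 53BP1 regions on S5p.

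The distance to S2p varied widely among the S2p-free regions. The gap to the nearest S2p region had a median of 12027 bp (quartiles 2559 and 50643) and ran from 5 bp to 1939893 bp. An S2p region lay within 1000 bp of 317 regions (14.7%, 13.2 to 16.3) and within 5000 bp of 764 (35.4%, 33.4 to 37.5). Another 544 (25.2%, 23.4 to 27.1) were more than 50000 bp from any S2p region, 322 more than 100000 bp and 16 more than 1000000 bp.

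For 373 S2p-free regions (17.3%, 15.7 to 19.0) the S5p partner itself met S2p elsewhere, and for the other 1783 the S5p partner was free of S2p along its whole length. The 373 had a median gap of 462 bp to S2p, wide S5p partners (median 3997 bp, fold 18.4) and a summit distance of 224 bp. In 145 of them the S5p summit lay inside an S2p region, and in 109 the same S5p region also carried a 53BP1 region on S2p. The 1783 had narrow partners (median 1234 bp, fold 13.3), a median gap of 20866 bp and a summit distance of 73 bp. These contrasts in gap and partner width partly follow from the split. A partner that meets S2p bounds the gap by its own width, and a wider partner can meet S2p more easily. The 53BP1 regions themselves differed little between these sets. The median 53BP1 fold was 5.07 in the 373 and 5.04 in the 1783, and the median width was 420.0 bp in the 373 and 398 bp in the 1783.

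Within the 1783, the medians of 53BP1 and S5p fold were slightly lower farther from S2p. Where S2p lay within 5 kb (394 regions) the median 53BP1 fold was 5.29 and the median S5p fold 13.8. Where it lay at 5 to 50 kb (845 regions) they were 5.04 and 13.3, and beyond 50 kb (544 regions) 4.91 and 12.5. The median 53BP1 widths were 402, 394 and 400.0 bp in the same order, and the median summit distances 59, 78 and 74.5 bp. Regions of the 1783 more than 50 kb from any S2p region thus had somewhat lower medians of both folds than those within 5 kb of one. Their median 53BP1 width was close to that of the nearer regions.

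**Figure D4:**
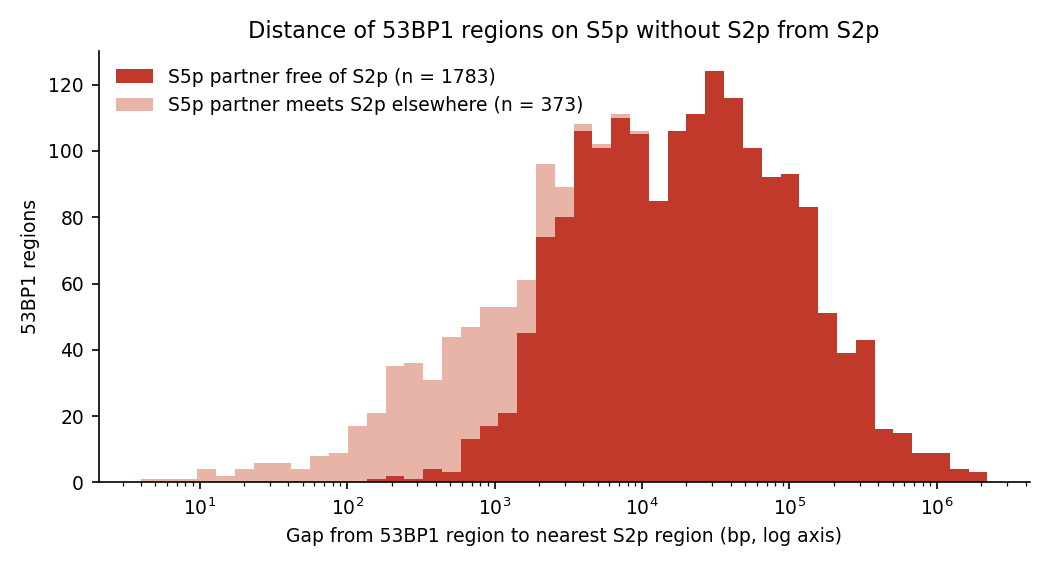
Number of S2p-free 53BP1 regions by the gap in bp to the nearest S2p region, on a log axis, with the 1783 whose S5p partner was free of S2p in dark red and the 373 whose partner met S2p elsewhere in pale red, stacked. The pale part lies mostly below 1000 bp (median 462 bp) and the dark part mostly above it (median 20866 bp). This partly follows from the split, since a partner that meets S2p bounds the gap by its own width.

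Of the 764 regions with S2p within 5000 bp, 657 had it on 1 side only and 107 lay between S2p regions on both sides. The nearest S2p region was weaker and narrower than those beneath 53BP1 regions on both forms, and close to the S2p list as a whole. The choice differed, since it was made by distance here and by largest fold among overlapping S2p regions there, which bears on the contrast. Its median fold was 3.93 for these 764, against 7.07 for the S2p partners of 53BP1 regions on both forms and 3.58 for all S2p regions. Its median width was 1196.5 bp, against 2324 bp for the S2p partners of regions on both forms and 1099 bp for all S2p regions.

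The 10 S2p-free regions with the largest 53BP1 fold, from 14.8 to 25.7, did not lie on the strongest S5p. Their S5p partners had percentiles of 71.2 to 91.8 in the S5p list, with a median of 84.8, close to the 85.3 of all S2p-free regions. The 10 strongest regions on both forms, with 53BP1 folds of 68.6 to 115, had S5p percentiles of 99.4 to 100.0. These sets were not matched in 53BP1 fold, and the S5p values of the S2p-free regions partly follow from the rule. Summit distances of the S2p-free 10 were 7 to 375 bp, so their 53BP1 summits lay near those of moderate S5p, as in the S2p-free set at large. Over the whole set, 72 of 2156 S2p-free regions ranked higher in the 53BP1 list than their partner did in the S5p list, against 209 of 8941 on both forms. The partners had median S5p percentiles of 85.3 and 94.4, so S2p-free regions had a lower rank to exceed.

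The strongest S2p-free region was on chromosome 19 at 46295824 to 46296645, 822 bp wide, with a 53BP1 fold of 25.7 and a −log10 q-value of 77.4. Its S5p partner, at 46295803 to 46296361, had a fold of only 11.1 and was 559 bp wide, so that 538 of the 822 bp were covered. The nearest S2p region was 3544 bp away and had an S2p fold of 67.7. This was the only one of the 10 that was wider than its S5p partner.

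The next strongest stood far from S2p. It lay on chromosome 22 at 40573437 to 40574301, with a 53BP1 fold of 21.5 on an S5p region of fold 28.2 and width 2038 bp. Its summit was 7 bp from the S5p summit and its nearest S2p region 132417 bp away. On chromosome 11, the region at 102979761 to 102980469 had a 53BP1 fold of 17.6 on S5p of fold 9.34, with S2p 16579 bp away. The other chromosome 11 region of the 10, at 61734620 to 61735434, had a 53BP1 fold of 17.3 and was the 1 whose S5p partner, 8252 bp wide with a fold of 9.10, met S2p; it lay 216 bp from an S2p region of fold 43.9.

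Among these 10, the 53BP1 rank exceeded the S5p rank by most on chromosome 12, where the region at 133484855 to 133485415 had a 53BP1 fold of 16.2 on S5p of fold 5.50, the 71.2nd percentile. On chromosome 19 at 6110280 to 6111130 the 53BP1 fold was 16.6 and the S5p fold 15.6, with S2p 74543 bp away. A pair shared the same 53BP1 fold of 15.5. One lay on chromosome 2 at 232469190 to 232469837 over S5p of fold 11.3, the other on chromosome 7 at 30810698 to 30811309 over S5p of fold 17.3. The 10 were completed by chromosome 17 at 39834510 to 39835322 (53BP1 fold 15.4, S5p fold 21.02) and chromosome 1 at 9599188 to 9599918 (14.8 and 18.8). Equal folds recurred throughout the set, and the 2156 regions had 777 distinct folds.

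The 5 regions farthest from S2p were 1478141 to 1939893 bp from it and still had compact S5p partners of 749 to 1308 bp. The farthest was on chromosome 10 at 67330110 to 67330485, with a 53BP1 fold of 5.08 on S5p of fold 15.7 and summits 8 bp apart. Chromosome 4 at 92369840 to 92370243 had a 53BP1 fold of 6.71 on S5p of fold 22.5, 1753182 bp from S2p. Chromosome 3 at 115503328 to 115503602 had a 53BP1 fold of 4.41 on S5p of fold 13.3. Chromosome 9 at 17134783 to 17135284 had the strongest signal of the 5, a 53BP1 fold of 8.82 on S5p of fold 33.7, with summits 52 bp apart. Chromosome 14 at 79745412 to 79745799 had folds of 4.91 for 53BP1 and 12.2 for S5p.

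The widest S2p-free region spanned 1759 bp, on chromosome 7 at 29602504 to 29604262, with a 53BP1 fold of 6.12 and S2p 66133 bp away. The next, on chromosome 17 at 46620707 to 46622074, spanned 1368 bp, had a 53BP1 fold of 6.996 and lay 733 bp from S2p. The others of the widest 5, on chromosomes 5, 19 and 1, were 1214 to 1288 bp wide with 53BP1 folds of 4.86 to 7.55. At the weak end, 8 regions were tied at the lowest −log10 q-value (1.36), each with a 53BP1 fold of 2.81. The first 3 of them in sorted order lay on chromosome 11 at 9635822 to 9636086, chromosome 12 at 860341 to 860876 and chromosome 17 at 42215146 to 42215498. The chromosome 12 one sat on strong S5p (fold 74.9), 1448 bp from its summit.

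Besides the region on chromosome 16, which had a 53BP1 fold of 11.8, the 5 nearest to S2p included chromosome 1 at 21588211 to 21588435 (gap 6 bp) and at 10092522 to 10093094 (gap 11 bp). The others were chromosome 12 at 57623313 to 57623583 (gap 8 bp) and chromosome 22 at 43582896 to 43583136 (gap 11 bp); 3 regions were tied at that gap. Their 53BP1 folds were 4.10 to 4.98. The chromosome 22 region lay near the end of an S5p region of 37520 bp, 35368 bp from its summit.

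S5p partners mostly carried 1 S2p-free region each. The 2156 lay on 2116 S5p regions, of which 2078 carried 1 such region each and 38 carried more, up to 3. Those with 3 were an S5p region of 3313 bp on chromosome 1 at 12676195 to 12679507, with 53BP1 folds of 5.10, 3.42 and 5.60, and one of 5355 bp on chromosome 20 at 61425140 to 61430494, with folds of 3.33, 4.53 and 8.85. These counts leave out 53BP1 regions on both forms, which shared the S5p partner of 109 S2p-free regions. No like count was made for the regions on both forms. The nearest other 53BP1 region of any class was a median of 55045 bp away. The median was 21942 bp for regions on both forms and 27402 bp for the whole 53BP1 list. It was within 5000 bp for 279 S2p-free regions (12.9%, 11.6 to 14.4), against 2584 on both forms (28.9%, 28.0 to 29.9). That nearest neighbour was itself S2p-free for 550 of the 2156 (25.5%, 23.7 to 27.4), against 1310 of the 8941 on both forms (14.7%, 13.9 to 15.4). S2p-free regions made up 19.0% of the whole 53BP1 list.

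In windows of 1 Mb, 1238 windows held an S2p-free region, out of 2002 with any 53BP1 region, and 690 held 1. In 151 windows every 53BP1 region was S2p-free, 183 regions in all, so most of these windows held only 1 53BP1 region. Another count, of windows with an S2p-free region and no S2p region at all, was 44. The most crowded window was on chromosome 22 from 38000001 to 39000000, with 9 S2p-free regions among 31 53BP1, 82 S5p and 64 S2p regions. Their 53BP1 folds were 3.31 to 6.62, and 8 of the 9 lay within 3 kb of S2p. Windows of chromosome 19 starting at 1000001, 11000001 and 12000001 held 7 each, among 41, 18 and 25 53BP1 regions. Windows were ranked by number, which also follows how many 53BP1 regions they hold. The first of these 3 had a lower S2p-free share than the 19.0% of the whole list. Windows with 6 numbered 11. In that on chromosome 6 from 52000001 to 53000000, 6 of only 8 53BP1 regions were S2p-free, and on chromosome 8 from 67000001 to 68000000, 6 of 11.

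The share of 53BP1 regions without S2p ran from 14.5% on chromosome 16 (78 of 537, 11.7 to 17.8) to 26.1% on chromosome 18 (42 of 161, 19.5 to 33.6). Chromosome 8 was next to the top, with 114 of 443 (25.7%, 21.7 to 30.1), and chromosome 17 next to the bottom, with 117 of 770 (15.2%, 12.7 to 17.9). The intervals of most other chromosomes overlapped. The share of S5p regions without S2p moved in part with it, at 46.6% on chromosome 18 and 42.5% on chromosome 8, against 32.4% on chromosome 16 and 32.8% on chromosome 17 (Spearman's rho over the 22 chromosomes 0.4218). Chromosome 19 had the lowest such share, 27.8%, but 18.9% of its 53BP1 regions were S2p-free. Its S2p-free regions had the smallest median gap to S2p, 3705.5 bp, and those of chromosome 18 the largest, 51567 bp.

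The chromosome shares were also set beside those given by S5p strength. Among 53BP1 regions on S5p, chromosome 18 had 26.8% without S2p, against 20.8% had each bin of S5p fold carried its share over all chromosomes. For chromosome 8 the values were 26.6% and 23.03%, for chromosome 16 14.8% and 18.8%, and for chromosome 17 15.6% and 19.8%. DNA copy number was not measured here, and its part in the chromosome values was not tested.

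**Figure D5:**
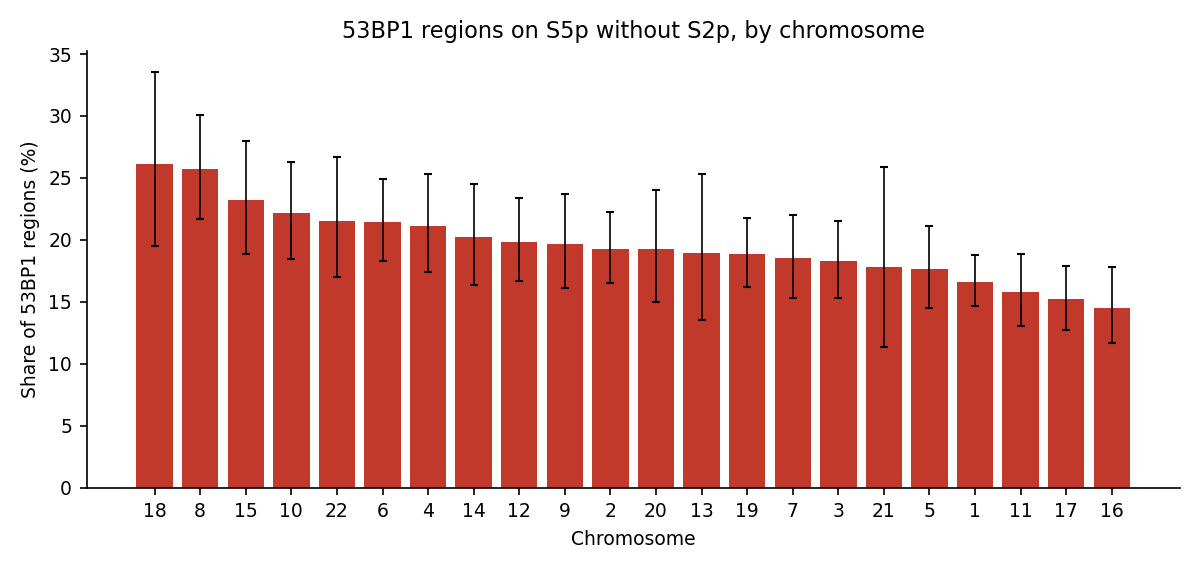
Share of the 53BP1 regions of each chromosome that lay on S5p without S2p, in percent, from the highest (chromosome 18, 26.1%) to the lowest (chromosome 16, 14.5%); bars are exact 95% binomial intervals. Most intervals overlap, and small chromosomes such as 21 (21 of 118 regions) have wide ones.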

How the data were processed

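The authors deposited 1 narrowPeak list of enriched regions per ChIP, from formaldehyde-fixed, sonicated chromatin, per the labels' protocols. Per the submitters' processing notes, coordinates are hg19 and base calling used bcl2fastq 2.20.0.422. Not given in the sources used here are the aligner, peak caller, settings, control and any pooling. As deposited, each region has a fold enrichment (a ratio over background), a −log10 p-value and −log10 q-value, a summit offset, and a score, which in the deposited rows is 10 times the −log10 q-value within 1. Read depth is unknown.

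From these, regions on chromosomes 1 to 22 were kept (11370 53BP1, 61263 S5p and 53422 S2p; 235, 1269 and 1179 rows left out) and overlaps, gaps and summit distances were computed in Python 3.11.15 (numpy 2.4.6, pandas 2.3.3, scipy 1.17.1, matplotlib 3.10.9). Shares have Clopper-Pearson intervals. Overlap and gap calls were tested on simulated data, with 0 errors in 1200 regions. Positions are 1-based. The gene and sequence tables at hand were of another build, so no gene was named, no sequence printed and the MCF10A label was not checked against marker genes. Regions named were the 10 of largest 53BP1 fold and the 5 each of largest S5p fold, widest, farthest from and nearest to S2p. Also named were the 3 of lowest −log10 q-value and the most crowded windows. Windows of 6, the lowest −log10 q-value and the fifth-nearest gap are tied, and ties were taken in sorted order. Regions at the edges of the rule and S5p regions with 3 members were chosen after their values were seen. Members and comparisons were chosen with earlier results of these data known.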

Additional observations from a re-analysis of the deposited data

How the results depend on the processing

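No paired analysis was possible because no ChIP was replicated. The count of 2156 became 1222 with a 53BP1 −log10 q-value of at least 5 and 1392 with no S2p allowed within 5 kb. It rose to 2730 when only S2p regions with a −log10 q-value of at least 5 counted. Of the regions on both forms, 575 (6.43%) had an S2p partner below that level. The remaining definitions gave 1783 to 2465. The difference in median 53BP1 fold (-1.38) was -1.49 when only S2p regions with a −log10 q-value of at least 5 counted, and reversed to 0.12 within bins of S5p fold and 0.10 with S5p width added (an alternative chosen after seeing the data). The width difference (-225 bp) was -205 bp with 50% of the region covered and with summits in place of regions, -57.8 bp within bins of S5p fold and -41.2 bp with S5p width added. The S5p fold difference (-22.7) was -23.6 with no S2p within 5 kb and -23.3 with S5p partners free of S2p. The small difference in summit distance (6 bp) had no stable sign. It was 15 bp with 50% coverage, 30.0 bp with summits, -1 bp with no S2p within 5 kb, -5 bp with S5p partners free of S2p, -54.0 bp within bins of S5p fold and 2.79 bp with S5p width added. The share with S2p within 5 kb (35.4%) was 14.7% at 1 kb and 74.8% at 50 kb, as wider limits must take in more. Alternatives for gene starts and sequence motifs were not run, since the tables were of another build. Unknown depth limits every absence: S2p was not detected at these sites, not shown to be absent.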
